A study of Mus musculus with 10 samples.

Results

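Lyz1 and Lyz2 are neighbouring mouse genes that encode the secreted enzyme lysozyme, and they were read here in macrophages sorted from the lamina propria of the small intestine after stroke or sham surgery. Both were chosen by gene symbol, as 2 of the 17279 genes in the deposited table, with earlier results of these data known. Across the 10 libraries Lyz2 was among the most abundant transcripts and kept within a narrow range, whereas Lyz1 was far lower and varied widely inside both groups. Neither gene passed the test between sham and pMCAO mice, and the ratio of Lyz1 to Lyz2, which is given below for every library, did not differ between the groups beyond the spread of the libraries.

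Lysozyme cleaves the glycan chains of peptidoglycan, the polymer that gives bacterial walls their strength, and the fragments it releases are sensed inside cells by receptors such as Nod1 and Nod2. Mice carry a duplicated lysozyme gene. Lyz2, the myeloid or M lysozyme, is a widely used marker of macrophages, monocytes and neutrophils, whereas Lyz1, the P lysozyme, is packed with alpha-defensins into the granules of Paneth cells, the antimicrobial cells at the base of the small intestinal crypt.

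The experiment compared 5 sham libraries with 5 pMCAO libraries, pMCAO being permanent occlusion of the middle cerebral artery, a model of ischaemic stroke without reperfusion. All mice carried the label C57BL6/J and were studied 24 h after surgery. The series describes the sorted cells as CX3CR1-GFP+, a reporter of the fractalkine receptor that marks monocytes and macrophages, although the genotype label names no reporter allele. The library name of replicate 1 in each group marks it as a pool, so that these 2 libraries may hold several mice, and the labels do not say how many mice the other libraries hold. Libraries were built from 2 ng of total RNA after removal of ribosomal RNA and were read from both ends over 100 bases.

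Total counts per library ranged from 18894151 to 60665972 in the sham group and from 6430643 to 28672285 in the pMCAO group, so that low genes were measured less precisely after pMCAO. The macrophage label was checked against 15 marker genes, of which 15 were in the table, and their summed level was 5421 to 11780 CPM (counts scaled to the library's total) in sham and 6821 to 13519 CPM in pMCAO libraries. Transcripts of other cell types were also present, and the summed level of 6 B and plasma cell genes ranged from 692 to 25327 CPM over the libraries. It was above the macrophage sum in sham replicate 2 (22570 against 6698 CPM). The same held in pMCAO replicate 2 (25327 against 8072 CPM) and pMCAO replicate 5 (7639 against 6821 CPM), and it was below that sum in the remaining libraries. By their level of Xist, the RNA of the inactive X chromosome, sham replicate 5 (2237 CPM) and pMCAO replicate 4 (4686 CPM) stood apart, since the remaining 8 libraries held 1.27 to 4.88 CPM. The labels give no sex, and the group differences of the lysozymes are therefore given with and without both libraries.

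Lyz1 (ENSMUSG00000069515) lies on the minus strand of GRCm38 at chr10:117287797-117292868, and Lyz2 (ENSMUSG00000069516) lies on the same strand at chr10:117277331-117282321. The stretch of 5475 bases between them holds no annotated gene. Each has 4 exons, and the first exon holds the start codon while most of the fourth is 3′ untranslated region. In the GENCODE M21 annotation both coding sequences are 447 bases long and differ at 22 bases, an identity of 95.1%. The proteins of 148 residues differ at 12 residues (91.9% identity), and 6 of the coding differences lie in codons for the same residue. Exon 2 is coding throughout and is shown because it illustrates how few bases separate the counts of one gene from those of the other. It has the same length of 165 bases in both genes, at chr10:117291029-117291193 for Lyz1 and chr10:117280641-117280805 for Lyz2, and is written 5′ to 3′ on the coding strand with the 6 bases that differ in capitals.
Lyz1 exon 2: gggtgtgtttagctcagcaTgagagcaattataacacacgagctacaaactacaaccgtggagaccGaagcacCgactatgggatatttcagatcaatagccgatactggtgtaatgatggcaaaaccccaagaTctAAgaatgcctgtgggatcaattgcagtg
Lyz2 exon 2: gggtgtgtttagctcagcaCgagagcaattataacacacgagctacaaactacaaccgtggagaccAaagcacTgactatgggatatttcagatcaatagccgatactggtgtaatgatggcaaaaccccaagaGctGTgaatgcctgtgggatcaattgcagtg

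Since reads were 100 bases long, each window of 100 bases in one transcript was compared, without gaps, with its closest match in the other. Of the 1164 windows in the Lyz1 transcript of 1263 bases, 24 (2.06%) occurred unchanged in Lyz2. Of these windows, 19 lay in the coding sequence, within an identical run of 118 bases, and 5 in the 3′ untranslated region. A further 284 Lyz1 windows (24.4%) had 1 or 2 differences, 633 (54.4%) had 3 to 9, and 223 (19.2%) had 10 or more, some of them because they span bases that one gene lacks. For Lyz2, with 1217 windows, the share without a difference was 1.97%. No transcript of another gene among the 141767 searched held any of these windows unchanged. Most of either transcript can thus be told from the other by at least 1 base in a single read, but a read with 1 or 2 differences can be placed on the wrong gene, and the sources used here do not say how reads that matched both genes were counted. Counts of Lyz1, the lower of the pair, are therefore uncertain, and the window shares do not give the size of this uncertainty. Lyz2 had 12.1 to 89.4 times the counts of Lyz1, so a small share of misplaced Lyz2 reads would weigh heavily in Lyz1. The part of such reads in the Lyz1 counts was not tested.

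**Figure D1:**
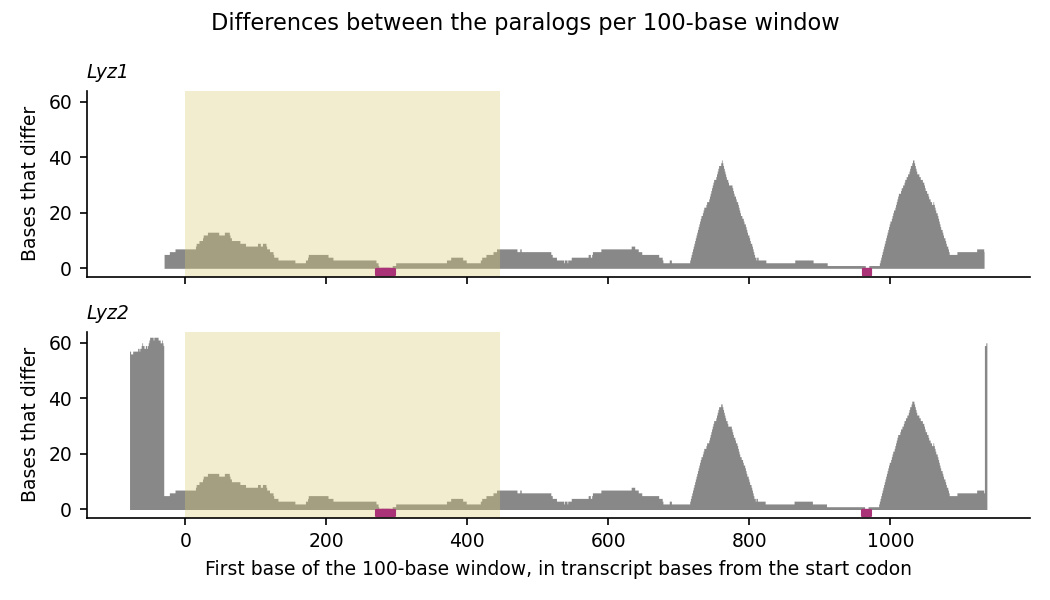
Bases that differ between Lyz1 and Lyz2 in each 100-base window of the longest transcript, against the window's first base counted from the start codon. The shaded band is the coding sequence, and the squares under the axis mark the 24 windows in each gene with no difference, which lie at 2 places. The tall peaks are windows that span bases which one gene's annotated transcript lacks. The tallest, at the start of Lyz2, lies where its annotated 5′ untranslated region of 79 bases extends past the 30 bases of Lyz1.

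Upstream of the genes the sequences are less alike. In the RefSeq promoters (GRCm38.p6), 200 bases that end 51 bases before the RefSeq start of each transcript were compared, at chr10:117292919-117293118 for Lyz1 and chr10:117282323-117282522 for Lyz2. The alignment had 150 identical bases, 48 mismatches and 4 gap bases, an identity of 75.8% of aligned bases. They are shown on the strand of the genes with bases that differ or have no partner in capitals. Whether these differences bear on the levels of the genes set out below was not tested.
Lyz1 promoter: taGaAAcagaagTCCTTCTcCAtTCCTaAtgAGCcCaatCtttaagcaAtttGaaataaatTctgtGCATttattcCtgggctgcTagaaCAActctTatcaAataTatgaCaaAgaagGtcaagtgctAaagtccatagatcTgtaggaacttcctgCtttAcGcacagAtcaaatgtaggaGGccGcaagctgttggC
Lyz2 promoter: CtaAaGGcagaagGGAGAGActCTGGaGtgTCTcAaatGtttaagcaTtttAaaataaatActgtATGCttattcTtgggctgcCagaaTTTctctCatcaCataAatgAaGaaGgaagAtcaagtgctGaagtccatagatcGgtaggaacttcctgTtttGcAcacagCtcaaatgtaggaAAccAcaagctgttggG
The motif AGGAAGT holds the core bound by ETS-family factors such as PU.1, a regulator of myeloid genes. This motif was searched on both strands over the first 200 bases of each promoter entry, the stretch shown here for the lysozymes. It occurred 1 time in each gene, in a stretch without differences, and in 1861 of 32851 mouse promoters (5.66%). A match of these letters does not show that a factor binds there.

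Lyz2 was at 7380, 7781, 10020, 5255 and 6591 CPM in sham replicates 1 to 5, and at 5248, 4721, 6757, 7932 and 5179 CPM in pMCAO replicates 1 to 5. It ranked between 5th and 14th of all genes by count in every library. The groups overlapped, since the highest library, sham replicate 3, and the lowest, pMCAO replicate 2, differed by 2.12-fold, and pMCAO replicate 4 was above 4 of the 5 sham libraries. The mean was 7406 ± 1751 CPM in sham and 5967 ± 1339 CPM in pMCAO (SD, n = 5 each). With edgeR's quasi-likelihood test the log2 fold change of pMCAO against sham was -0.32 (SE 0.26, 95% interval -0.89 to 0.24, Benjamini-Hochberg adjusted p = 0.922). Of the 5 pMCAO libraries, 4 were below the sham mean and 3 below the lowest sham library.

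Lyz1 was at 251, 87.1, 141, 81.5 and 332 CPM in sham replicates 1 to 5, from 7361, 2953, 4815, 1540 and 20162 counts. In pMCAO replicates 1 to 5 it was at 247, 56.6, 487, 93.5 and 428 CPM, from 1588, 1623, 5507, 1085 and 11570 counts. The pMCAO group thus held both the highest and the lowest library, 8.61-fold apart, with 2 libraries above every sham library and 1 below. Its rank among all genes ran from 172nd in pMCAO replicate 3 to 3089th in pMCAO replicate 2. The mean was 179 ± 110 CPM in sham and 263 ± 193 CPM in pMCAO (SD, n = 5 each), so the SD was 61.3% and 73.6% of the mean, against 23.6% and 22.4% for Lyz2. The log2 fold change was 0.63 (SE 0.54, 95% interval -0.55 to 1.81, edgeR adjusted p = 0.924).

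**Figure D2:**
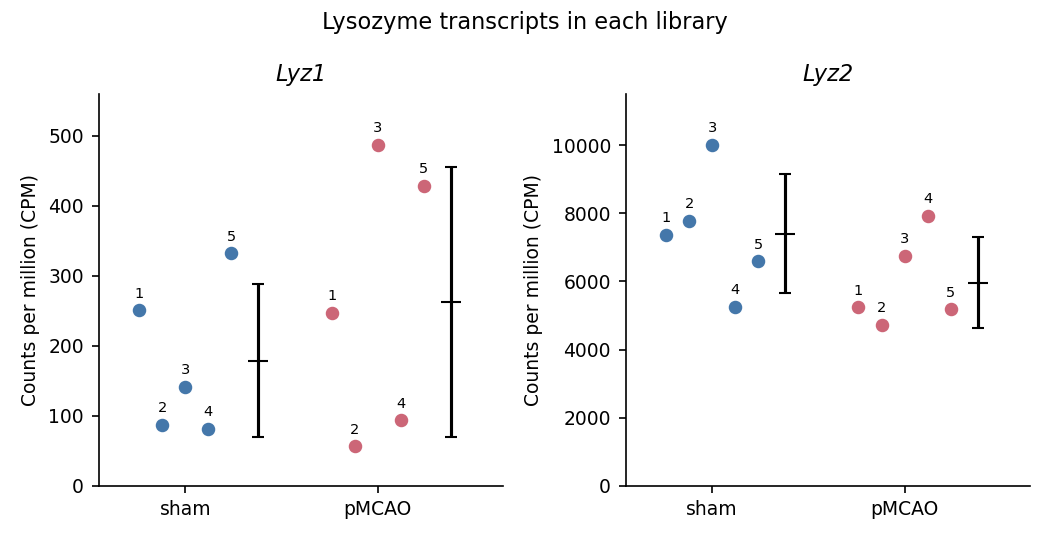
Lyz1 and Lyz2 in CPM (linear axes from 0) in each of 5 sham (blue) and 5 pMCAO (red) libraries, numbered by replicate, with the group mean and SD to the right of the points. Lyz1 spreads from 56.6 to 487 CPM with 2 low libraries in the pMCAO group, while Lyz2 stays between 4721 and 10020 CPM, and the groups overlap for both genes.

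Of 16949 genes tested by edgeR, 0 were called at an adjusted p of at most 0.05 (a background of 0%), 799 (4.71%) had an unadjusted p under 0.05, and DESeq2 called 3, neither lysozyme gene among them. The unadjusted p was 0.265 for Lyz1 and 0.239 for Lyz2 in the edgeR fit over all genes. Groups that did not overlap in CPM were seen for 0.938% of genes and for 0 of the 2 lysozyme genes. The intervals above leave room for a fold between 0.685 and 3.52 for Lyz1 and between 0.541 and 1.18 for Lyz2. These tests measure the spread between the libraries, which the labels call biological replicates. In bulk libraries fewer cells of a type and less RNA per cell cannot be told apart.

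The ratio of the paralogs needs no scaling between libraries, since both are counted in the same one. Lyz1 counts per 100 Lyz2 counts were 3.40, 1.12, 1.41, 1.55 and 5.04 in sham replicates 1 to 5. In pMCAO replicates 1 to 5 they were 4.71, 1.20, 7.21, 1.18 and 8.27. The counting error was small beside these differences. In the shallowest library, pMCAO replicate 1, the 95% Wilson interval ran from 4.47 to 4.95. Such intervals cover counting error only, as copies of one molecule were not marked. Sorted by ratio, the libraries left a gap between 1.55 and 3.40 with 5 libraries on each side, 3 sham and 2 pMCAO below it and 2 sham and 3 pMCAO above it. Neither group lay on one side of the gap.

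The mean log2 ratio was -5.57 ± 0.92 in sham and -4.92 ± 1.38 in pMCAO libraries (SD, n = 5 each). The difference of 0.65 had a 95% interval from -1.23 to 2.41 and p = 0.357 in a two-sided exact permutation test over all assignments of the libraries, for which the smallest p is 0.00794. As the ratio is the direct comparison of the paralogs, no difference between the responses of Lyz1 and Lyz2 was detected. Without sham replicate 5 and pMCAO replicate 4 the difference in log2 ratio was 1.33 (p = 0.114, exact permutation test). The log2 fold changes were then 1.06 for Lyz1 and -0.53 for Lyz2, with an edgeR adjusted p of 0.999 for each. The log2 difference in the share of both genes together, given below over all libraries, was -0.40 without these 2 libraries (p = 0.114, exact permutation test). Without pMCAO replicate 3 the log2 fold change of Lyz1 was 0.16, and without pMCAO replicate 5 the difference in log2 ratio was 0.32.

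**Figure D3:**
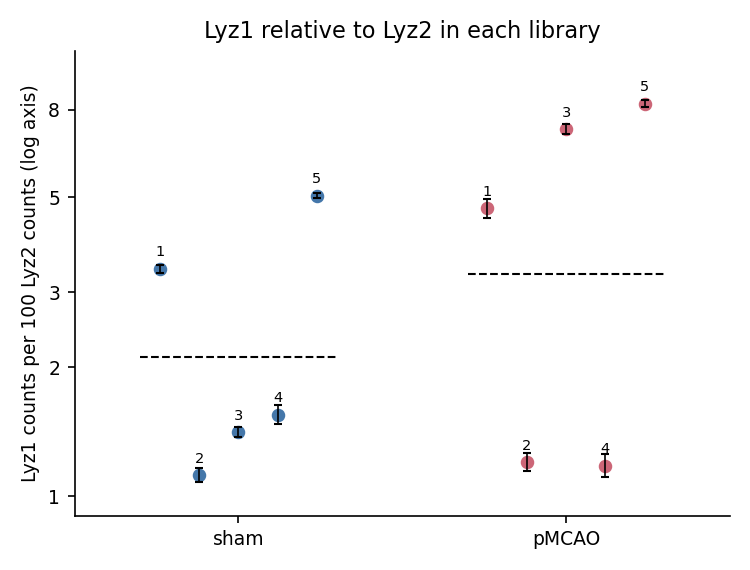
Lyz1 counts per 100 Lyz2 counts on a log axis in each library, numbered by replicate, with 95% Wilson counting intervals and a dashed line at the mean of the log2 ratios of each group. Both groups hold libraries near 1 and libraries above 3, and the highest, at 8.27, is pMCAO replicate 5.

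Per kilobase of transcript, the level of Lyz2 was 11.6 to 85.8 times that of Lyz1 over the 10 libraries, with a median of 45.1. Lyz2 thus made up nearly all of the lysozyme counts in every library, and Lyz1 took 1.11% to 7.64% of them. Both genes together held 0.478% to 1.02% of all counts. That share was 0.758 ± 0.175% in sham and 0.623 ± 0.135% in pMCAO libraries (SD, n = 5 each), a log2 difference of -0.28 (95% interval -0.78 to 0.21, p = 0.230, two-sided exact permutation test). Of 10 genes listed for the lysozyme family, 1 other had a row, Lyzl4, at 0 to 21 counts, which did not pass the filter on low counts. The other 7 were not analysed here.

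The neighbouring gene on the Lyz1 side, Cpsf6, which encodes a subunit of the complex that cleaves pre-messenger RNA before polyadenylation, lies 51804 bases away. It was at 65.6 to 130 CPM in sham and 67.7 to 168 CPM in pMCAO libraries, with a log2 fold change of 0.43 (edgeR adjusted p = 0.922). On the Lyz2 side the nearest annotation is a pseudogene, Gm10936, 26603 bases away, which was not analysed here.

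Paneth cell products were present in these sorted cells, and the libraries rich in them were those with more Lyz1. Of 24 genes listed, which are alpha-defensins and other granule or secreted products apart from Lyz1 itself, 14 were in the table and were tested. Their summed level was 534, 39.5, 782, 26.8 and 434 CPM in sham replicates 1 to 5. In pMCAO replicates 1 to 5 it was 657, 134, 453, 22.9 and 980 CPM. The mean log2 CPM of the list formed separate clusters, from -0.64 to -0.18 in 4 libraries, which were replicates 2 and 4 of both groups, and from 3.65 to 4.75 in the other 6. Lyz1 was at 56.6 to 93.5 CPM in the 4 libraries and at 141 to 487 CPM in the 6, with no overlap, and these clusters were read from the data rather than the labels. Lyz2 was at 4721 to 7932 CPM and 5179 to 10020 CPM, which overlap.

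Defa24, an alpha-defensin, was at 99.2, 6.52, 47.2, 4.55 and 94.1 CPM in sham replicates 1 to 5 and at 104, 6.14, 133, 2.84 and 315 CPM in pMCAO replicates 1 to 5. It spanned 111-fold over the libraries, whereas Lyz1 spanned 8.61-fold. Where Defa24 was at its lowest, 2.84 CPM in pMCAO replicate 4, Lyz1 was still at 93.5 CPM. Over the 4 libraries low in Paneth cell products, Lyz1 stood at 1.12 to 1.55 per 100 Lyz2 counts. Over the other 6 it stood at 1.41 to 8.27, and sham replicate 3, whose Reg3g level of 540 CPM made up most of its sum, gave the 1.41. Which cells this remaining Lyz1 came from, and how much of it was Lyz2 reads assigned to Lyz1, was not tested.

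Since the libraries were clustered by this list, relations with it were computed over the 6 libraries alone. Within them Lyz1 and the mean of Paneth cell products had r = 0.13 (exact permutation p = 0.806) and rho = -0.029 (exact permutation p = 1.00), and r = 0.25 without sham replicate 5 and pMCAO replicate 1. Lyz2 and the list had r = -0.49 (exact permutation p = 0.243) and rho = -0.60 (exact permutation p = 0.242) in the 6 libraries. Without the same 2 libraries r was -0.81, with an exact permutation p of 0.0417, the smallest that 4 libraries can give (0.25 after adjustment over the 6 relations). The link between Lyz1 and the mean of the list was therefore seen between the clusters and was not detected within the larger one. Defa24 and Itln1, members picked below for their r over all 10 libraries, had r = 0.81 and 0.52 with Lyz1 within the 6. That r is not given here for the rest of the list. No relation between Lyz1 and Lyz2 was detected over the 10 libraries, with r = -0.15 (permutation p = 0.666) and rho = -0.10 (permutation p = 0.787), and r = 0.087 without sham replicate 3 and pMCAO replicate 5. Lyz2 and the mean of the macrophage genes had r = 0.52 (permutation p = 0.122) and rho = 0.38 (permutation p = 0.279), but r was 0.14 without sham replicate 5 and pMCAO replicate 5. Lyz1 and the mean of the macrophage genes had r = -0.17 (permutation p = 0.642) and rho = -0.10 (permutation p = 0.785), and the log2 ratio and log2 total counts had r = -0.14 (permutation p = 0.698) and rho = -0.21 (permutation p = 0.561). Over these 6 relations, the smallest p adjusted by Benjamini-Hochberg was 0.729 for r and 0.837 for rho.

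**Figure D4:**
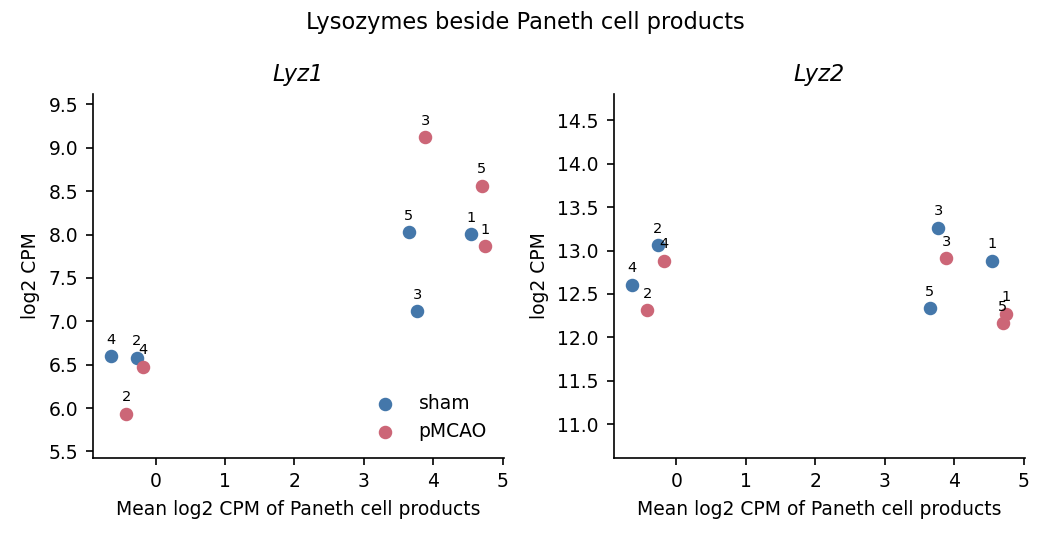
Log2 CPM of Lyz1 and Lyz2 (vertical axes of equal span) against the mean log2 CPM of 14 Paneth cell products in each library, numbered by replicate. The 4 libraries on the left, replicates 2 and 4 of both groups, hold the lowest Lyz1 values, while Lyz2 covers a similar range on both sides.

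The members of the list with the highest mean log2 level were Defa24, the defensin gene AY761184 and Reg3g, a secreted lectin that binds Gram-positive bacteria and is also made by absorptive cells. Alpha-defensin genes are close copies of each other, so that their counts may be split among them. No Paneth cell product was called in either direction. The log2 fold change was above 0 for 11 genes and below 0 for 3, with a median of 0.85 against -0.0059 over all genes tested. It was 1.20 for Defa24 (SE 1.06), 1.28 for AY761184 (SE 1.22) and -1.35 for Reg3g (SE 1.06). The edgeR adjusted p was 0.922 to 0.925 for these 3 genes. Several defining products were at 0 in part of the libraries, among them Mptx2 in 4 and Ang4 in 2.

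Genes were also ordered by how closely their log2 CPM followed each lysozyme over the 10 libraries, among 9064 others with a mean of at least 10 CPM. For Lyz1 the first 5 were Defa24 (r = 0.91), the defensin-like genes Gm14851 (0.91) and Gm15284 (0.90), Dkk3, a secreted protein of the Dickkopf family (0.91), and Itln1, the lectin intelectin (0.89). Defa17, AY761184, Ang4, an antimicrobial ribonuclease, and Defa21 stood at places 6 to 9. Reg3g stood apart from its list at place 5641 (r = -0.14). These r describe 10 libraries that fall into 2 clusters, and within the 6 libraries they ran from 0.52 for Itln1 to 0.90 for Dkk3.

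For Lyz2 the first 5 were genes found in most cells, namely the chaperone partner Chordc1 (r = 0.90), the endosomal GTPase Rab5c (0.88), the membrane fusion protein Snap23 (0.87), the clathrin light chain Clta (0.86) and the cap-binding protein Ncbp2 (0.86). The 5 genes moved little, as Chordc1 spanned 1.49-fold and Ncbp2 1.78-fold over the libraries. No gene was among the first 5 of both lysozymes. The r of Lyz2 with the Paneth cell products of that level ran from -0.37 for AY761184 to 0.30 for Reg3g.

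Other lists were read for the cells and pathways around lysozyme. None of their members was called. The 15 macrophage genes had a median log2 fold change of 0.047, with 9 above 0 and 6 below. Csf1r, the receptor for the growth factor of macrophages, had 0.32 (SE 0.27), the complement gene C1qb -0.012 (SE 0.30) and the mannose receptor Mrc1 0.39 (SE 0.41). Among 8 myeloid transcription factor genes the median was 0.044, with Runx1 at -0.029 and Maf at 0.27. The 9 monocyte genes had a median of -0.25, with 3 above 0 and 6 below. The 3 of highest level went in both directions, with the chemokine receptor Ccr2 at 0.14 (SE 0.32), Plac8 at -1.08 (SE 0.41) and the coagulation factor gene F13a1 at 1.28 (SE 0.66). Plac8 and Vcan (-1.47) had unadjusted p under 0.05 in the edgeR fit without being called. Neutrophils are another known source of Lyz2. The neutrophil granule protein gene Ngp was at 0 in 5 libraries and S100a8 in 4, and neither was above 5.24 CPM in any library. Retnlg reached 12.9 CPM and was at 0 in 1 library, and the collagenase gene Mmp8 was at 0.318 to 8.81 CPM. Of 12 neutrophil genes these 4 and Mmp9 were in the table, and Mmp9, a protease that macrophages also make, was the most abundant at 95.4 to 410 CPM.

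Of 13 genes listed for sensing or importing fragments of peptidoglycan, 11 were tested and 0 were called. The median log2 fold change was 0.027, with 6 above 0 and 5 below. Nlrp3, an inflammasome sensor, had 0.16 (SE 0.24), and the transporters Slc15a3 and Slc15a4, which carry such fragments out of endosomes, had 0.027 (SE 0.20) and -0.0073 (SE 0.21). Nod2, named here after its values were seen, was at 5.67 to 19.5 CPM in sham and 7.22 to 19.4 CPM in pMCAO libraries. Among 8 other antimicrobial genes of macrophages, Cybb, the catalytic subunit of the phagocyte oxidase, had 0.38 (SE 0.19) and the pore-forming Mpeg1 0.22 (SE 0.25). For 1 gene of this list, the oxidase subunit Ncf4, the groups did not overlap (78.2 to 110 CPM in sham, 48.3 to 77.4 CPM in pMCAO), which held for 0.938% of all genes, and it was not called (edgeR adjusted p = 0.922).

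**Figure D5:**
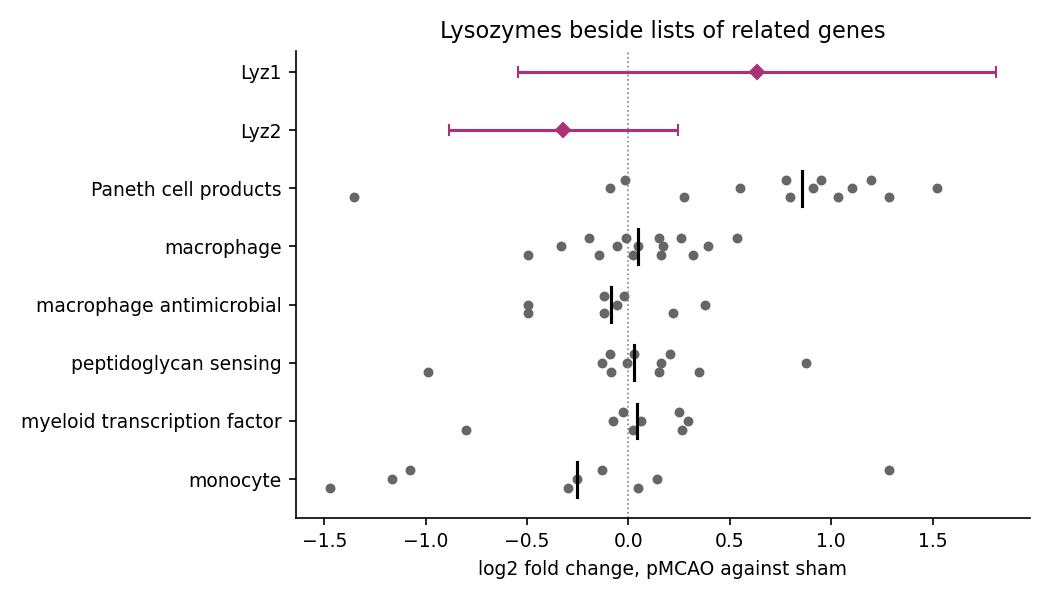
Log2 fold change of pMCAO against sham by edgeR for Lyz1 and Lyz2 (diamonds with 95% intervals) and for each tested gene of 6 lists (points), with the median of each list as a vertical bar. Both intervals cross 0. The Paneth cell products spread from -1.35 to 1.52 around a median of 0.85, and the macrophage genes lie closer to 0.

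Epithelial transcripts other than those of Paneth cells did not follow one direction across the lists. The median log2 fold change was -0.011 for 13 absorptive enterocyte genes, 0.26 for 7 goblet cell genes and -0.62 for 5 crypt stem cell genes. All 5 crypt stem cell genes were below 0, as were 8582 of the 16949 genes tested. In each list 0 were called, as over all genes. Olfm4, which marks crypt stem cells, was at 92.1 to 149 CPM in sham and 5.08 to 75.4 CPM in pMCAO libraries. These groups did not overlap, which held for 0.938% of all genes. The log2 fold change of Olfm4, -1.78, was not called (edgeR adjusted p = 0.922). The part of epithelial RNA in the Lyz1 counts was not tested.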

How the data were processed

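Small intestinal lamina propria macrophages sorted by flow cytometry were profiled by RNA sequencing in 5 sham and 5 pMCAO libraries, grouped by their labels. The authors deposited raw counts for each gene and their own CPM, scaled to the total counts of the listed genes. The deposited table also holds the authors' own log2 fold changes, mean log2 expression, p-value and FDR columns, which were not used. The submitters' processing notes name STAR, featureCounts, limma, GRCm38 and mm10, and strand, versions and the handling of reads that match several genes are not given in the sources used here. Every gene in the table had at least 10 counts in at least 2 libraries.

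Counts were filtered with filterByExpr (16949 genes kept), normalised with TMM factors and tested between groups in edgeR 4.0.16 (quasi-likelihood, R 4.3.3), with Benjamini-Hochberg adjustment over all genes tested. The test was tested on simulated data. CPM per library are the deposited values. The ratio was log2 of Lyz1 over Lyz2 counts, each plus 0.5, compared by an exact permutation test. Its interval holds the shifts that this test did not reject. Log2 CPM for relations between genes used TMM and a prior count of 2, with 100000 resamples, or every order where 6 or fewer libraries were used. No 2 libraries were repeats of each other, as the lowest ratio of chi-square to degrees of freedom between a pair was 47.7 (10879 genes).

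Transcripts were those of GENCODE M21, the longest per gene, and promoters were RefSeq entries, found for both genes. Alternatives were DESeq2 1.42.0, limma-voom 3.58.1, other scaling and filters, a replicate block and left-out libraries. Genes named from each list are the 3 with the highest mean log2 CPM, apart from 2 that are not reported here. The 2 members, the lists and the tests were chosen with earlier results of these data known. Restricting relations with Paneth cell products to the 6 libraries of 1 cluster, in place of all 10, was chosen after seeing the data.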

Additional observations from a re-analysis of the deposited data

Results flagged for a closer look

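Among 34 groups of 5 libraries checked, 1 held a library far from the others, where 1.7 would by chance. The summed CPM of 9 monocyte genes on the log2 scale was low in pMCAO replicate 3, at 721 CPM against 1458 to 1773 CPM in the other pMCAO libraries, and its gap to the nearest library was 0.782 of the group's range, above the limit of 0.71. In the same library Lyz1 was at its highest, 487 CPM. Sham replicate 4 had a lower monocyte sum, 676 CPM, with Lyz1 at 81.5 CPM. None of the 8 groups checked for the lysozyme measures held a distant library.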

How the results depend on the processing

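Neither lysozyme gene was called under any of 21 alternatives, and each kept its direction. The log2 fold change of Lyz1 lay between 0.16 and 1.06 (adjusted p 0.702 to 1.00), with 0.29 under limma-voom, and between 0.16 and 0.89 when each library was left out in turn. That of Lyz2 lay between -0.54 and -0.20 (adjusted p 0.373 to 1.00), the lowest under limma-voom with sample quality weights. The difference in log2 ratio lay between 0.32 and 1.60 over 17 alternatives (exact permutation p 0.114 to 0.659), the highest as a difference of group medians. That in the lysozyme share lay between -0.44 and -0.17 over 15. With the replicate number as a block, the log2 fold change was 0.30 for Lyz1 and -0.32 for Lyz2 (edgeR adjusted p 0.849 and 0.706), 0 genes were called and 1303 rather than 799 had an unadjusted p under 0.05. Same-numbered libraries deviated together with correlations between -0.0055 and 0.37, with a mean of 0.20. The labels do not say whether the numbers pair the libraries, and the main tests take no pairing. Replicates 2 and 4 of both groups were low in Paneth cell products. Replicate 2 was the highest of each group in B and plasma cell genes (22570 CPM in sham, 25327 CPM in pMCAO). With the numbers taken as pairs, the difference in log2 ratio of 0.65 had p = 0.188 (exact sign flips). DESeq2 called 3 genes against 0, and the number with an unadjusted p under 0.05 was 1888 with sample quality weights and 462 without both pooled libraries. Several relations turned sign, none with an adjusted p below 0.05, and the cause was not tested. Without the 2 libraries farthest from the median, r was 0.087 for Lyz1 with Lyz2, 0.41 for Lyz1 with macrophage genes and 0.41 for the log2 ratio with log2 total counts. As deviations from the group means, r was 0.069 for the ratio with total counts and -0.30 for Lyz1 with Paneth cell products. An alternative chosen after seeing the data left out Reg3g and used plain log2 CPM over the 6 libraries. There r with the list was 0.34 for Lyz1 (exact permutation p = 0.519) and -0.65 for Lyz2 (exact permutation p = 0.135). Without sham replicate 3 and pMCAO replicate 5 as well, r was -0.47 for Lyz1 and -0.084 for Lyz2. With 5 libraries a group and an SD of Lyz1 above 60% of the mean, the intervals given are wide, and changes within them are not excluded.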
